A study of Rattus norvegicus with 18 samples.

Results

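The miRNAs miR-132 and miR-212 are cut from 2 neighbouring hairpins of 1 genomic cluster, and each hairpin gives a 5p and a 3p arm. All 4 arms, rno-miR-132-3p, rno-miR-132-5p, rno-miR-212-3p and rno-miR-212-5p, were found by name among the 909 entries of a miRNA count table of rat gastrocnemius muscle. The cluster was chosen by the counts of rno-miR-212-3p, which were higher in old AL than in young AL rats in an earlier analysis of the same libraries, and its arms were then taken by name whatever their change. For this reason the old AL against young AL values of all 4 arms are given as a description with no test.

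Small RNA was sequenced in 18 libraries from gastrocnemius, a calf muscle, of male Brown Norway rats, 6 per group. Young AL rats were 6 months old and old AL rats 28 months old, both with free access to food (ad libitum, AL). Old CR rats, also 28 months old, had been on caloric restriction (CR) since early adulthood, at 55% of the ad libitum intake. No transgene, drug or injury was involved, and every rat was male and of 1 strain. Whole muscle was used, so that fibres, vessels, nerve endings, connective tissue and blood cells contribute to each library. A difference in the number of cells of a type cannot be told apart from a difference in the miRNA content per cell.

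The cluster is known as a target of the transcription factor CREB, which induces it in neurons after synaptic activity and growth factor signals. In the heart both miRNAs are known to promote hypertrophic growth of muscle cells through repression of the transcription factor FoxO3, and miR-132 is also known from activated endothelial cells and leukocytes. A mature miRNA recognises its target mRNAs mainly through its seed, bases 2 to 8 from the 5′ end, so arms with the same seed can bind many of the same targets.

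The mature sequences of all 4 arms, from RefSeq on the rat build GRCr8, are shown because the arms fall into 1 pair with a common seed and 2 arms with seeds of their own. They are written 5′ to 3′ with the seed in capitals.
rno-miR-132-3p: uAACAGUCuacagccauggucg
rno-miR-212-3p: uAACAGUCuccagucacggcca
rno-miR-132-5p: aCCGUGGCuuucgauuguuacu
rno-miR-212-5p: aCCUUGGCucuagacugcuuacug

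Both 3p arms carry the seed AACAGUC, whose matching site in an mRNA reads GACUGUU. Among 724 mature rat sequences searched no other miRNA had this seed, so that rno-miR-132-3p and rno-miR-212-3p made up the seed family. They were identical at 17 of 22 positions. The first 9 bases were the same and the differences, counted from the 5′ end with the base of rno-miR-132-3p first, were A10C, C14U, U17C, U20C and G22A. The 5p arms differed within the seed, by G4U with the base of rno-miR-132-5p first, and at 8 of the 22 positions compared. Neither 5p arm shared its seed with another of the sequences searched.

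On the + strand of chromosome 10 of GRCr8, rno-miR-212-5p lay at chr10:60521771-60521794, rno-miR-212-3p at chr10:60521811-60521832, rno-miR-132-5p at chr10:60522055-60522076 and rno-miR-132-3p at chr10:60522091-60522112. The 2 hairpins were 182 bases apart, and 0 other annotated genes overlapped them or the bases between. Their neighbours were the protein-coding gene Hic1, which encodes a transcriptional repressor, on the side of Mir212 and the non-coding gene LOC120095261 on the side of Mir132. The reference used held no hairpin sequence for Mir212, so only the hairpin of miR-132 is shown. It lies at chr10:60522033-60522133 on the + strand and is written with its 5p and 3p arms in capitals.
Mir132: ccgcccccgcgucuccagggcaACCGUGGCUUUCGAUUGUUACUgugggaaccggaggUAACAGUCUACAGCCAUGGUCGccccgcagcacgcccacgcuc

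Library totals lay between 34940346 and 83110905 counts. The TMM factors, which adjust for the share of counts taken by a few very abundant miRNAs, went from 0.656 to 2.08. The highest factor belonged to old AL replicate 7, which also had the highest count of each of the 4 arms among the old AL libraries, so results that it moves are also given without it. Young AL replicates 1 and 2 carry the library numbers 19 and 20, apart from the other numbers of their group. Striated muscle miRNAs, among them rno-miR-1-3p and rno-miR-133a-3p, summed to 73833 to 187728 CPM in every library. Of the 12 tested, edgeR called 0 in each comparison, 0 had an unadjusted p under 0.05 and DESeq2 called 0.

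Levels are given as CPM, the counts per M counts of a library after TMM scaling. Mature miRNAs are of nearly the same length, so no scaling by length was applied. The ligation of adapters depends on the ends of a small RNA, and its part in differences between arms was not tested.

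In this muscle miR-132 was the more abundant miRNA of the cluster, and all 4 arms were rare. Over the 18 libraries rno-miR-132-3p averaged 1.81 ± 0.701 CPM (SD, n = 18) and ranked 264 of 763 known miRNAs. The mean of rno-miR-132-5p was 1.20 ± 0.576 CPM, that of rno-miR-212-5p 0.363 ± 0.189 CPM and that of rno-miR-212-3p 0.203 ± 0.125 CPM, at rank 436. No entry of the table, known or predicted, repeated the counts of a member to within 10% or 2 counts in all libraries, so no arm was also listed under another name.

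The arm that prevailed differed between the hairpins. The 3p arm of miR-132 exceeded its 5p arm in 16 of 18 libraries, with a ratio of the summed counts of 1.53. In miR-212 the 5p arm exceeded the 3p arm in 17 of 18 libraries, and the ratio of 3p to 5p counts was 0.586. The 1 exception was old AL replicate 8, which had 29 counts of rno-miR-212-3p and 18 of rno-miR-212-5p.

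rno-miR-132-3p is the arm to which most of the known functions of the cluster are attributed. Young AL libraries held 44 to 156 counts of it with a median of 72, old AL libraries 70 to 362 with a median of 98, and old CR libraries 66 to 189 with a median of 119. In CPM the young AL libraries spanned 1.16 to 2.17 around a median of 1.39, the old AL libraries 1.12 to 3.56 around 1.56, and the old CR libraries 1.21 to 3.40 around 1.98. The 3 groups overlapped widely. Of the old AL libraries only replicate 7 exceeded the whole young AL group, and 3 of 6 old CR libraries did.

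For rno-miR-132-5p, the partner arm, the young AL libraries spanned 0.459 to 1.57 CPM around a median of 0.895, the old AL libraries 0.432 to 1.71 CPM around 0.936, and the old CR libraries 0.942 to 2.65 CPM around 1.44. All old CR libraries exceeded the median of young AL and that of old AL, and 2 of them exceeded every library of both groups.

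rno-miR-212-3p, which shares the seed of rno-miR-132-3p, had 2, 3, 2, 2, 12 and 7 counts in young AL replicates 1 to 6. In old AL replicates 7 to 12 it had 47, 29, 16, 13, 15 and 17 counts, and in old CR replicates 13 to 18 it had 7, 16, 10, 8, 16 and 27. A library with 2 counts allows 0.242 to 7.22 counts by an exact 95% Poisson interval, which covers counting error only.

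In CPM the young AL libraries spanned 0.0383 to 0.167 around a median of 0.0526, the old AL libraries 0.182 to 0.462 around 0.302, and the old CR libraries 0.120 to 0.320 around 0.239. The lowest old AL value of rno-miR-212-3p was thus above the highest young AL value, and the old CR libraries reached from the upper end of young AL into the range of old AL.

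Counts of rno-miR-212-5p, the arm with a seed of its own, went from 3 to 23 per young AL library, from 18 to 61 per old AL library and from 14 to 38 per old CR library. The young AL libraries spanned 0.0886 to 0.319 CPM around a median of 0.148, the old AL libraries 0.216 to 0.600 CPM around 0.457, and the old CR libraries 0.257 to 0.705 CPM around 0.365. Young AL replicates 2 and 5 stood at 0.318 and 0.319 CPM and the other 4 young libraries at or below 0.181 CPM. Above the highest of them stood 5 of 6 old AL libraries and 4 of 6 old CR libraries. With scaling by library totals alone, 3 of 6 old AL and 4 of 6 old CR libraries exceeded all young AL libraries.

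**Figure D1:**
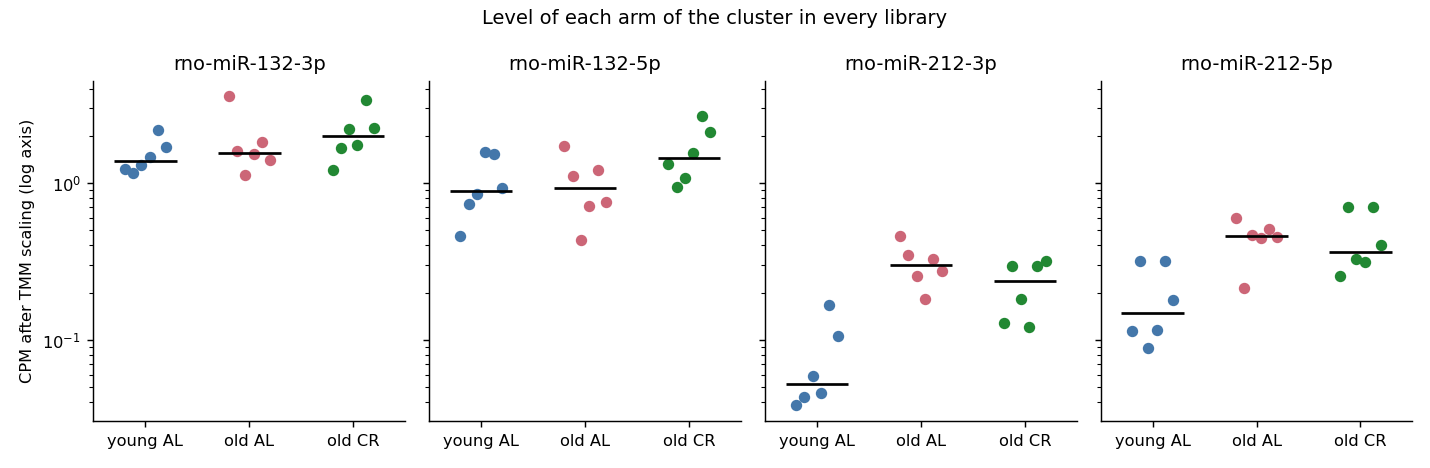
Level of the 4 arms in each of the 18 libraries, as CPM after TMM scaling on a log axis, with 1 point per library and a line at the median of the group. The points of rno-miR-212-3p in old AL (0.182 to 0.462 CPM) lie above all points in young AL (0.0383 to 0.167 CPM), while those of rno-miR-132-3p overlap between the 3 groups.

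The comparison of old AL with young AL asks what changes with age under free feeding. In it the miR-212 arms were higher and the miR-132 arms were not set apart from young AL. The mean level of rno-miR-212-3p was 0.309 ± 0.0953 CPM with age and 0.0765 ± 0.0505 CPM in the young rats (SD, n = 6 each). Its log2 fold change was 1.94 with an SE of 0.419, which is 3.83-fold. For rno-miR-212-5p the means were 0.448 ± 0.127 and 0.189 ± 0.105 CPM and the log2 fold change 1.20 with an SE of 0.389. It was 0.26 with an SE of 0.269 for rno-miR-132-3p and -0.05 with an SE of 0.352 for rno-miR-132-5p.

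In the same fit edgeR called 1 of the 4 arms higher, rno-miR-212-3p, and 1 of 4 had groups that did not overlap, the same arm. Over all 732 entries tested, 0.956% were called higher and 0.956% were higher with no overlap. This is the contrast that led to the cluster, so nothing is read from the count. With 1 library left out, the log2 fold change of rno-miR-212-3p was 1.81 to 2.35, and without young AL replicates 1 and 2 it was 1.64. The edgeR call was kept in 4 of the 12 fits with 1 library left out. It was kept under 8 of 10 other settings and lost with library totals and without young AL replicates 1 and 2. DESeq2, 1 of these settings, called both miR-212 arms higher, beside 36 of 732 entries called higher. These calls too are only a description. Without old AL replicate 7 the log2 fold change of rno-miR-132-3p was -0.01.

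The comparison of old CR with young AL asks what differs between old restricted and young freely fed muscle. The old CR libraries were not part of the contrast that picked the cluster, while the young AL libraries were, so the result is only in part independent. All 4 arms had higher means in old CR, and 0 of the 4 passed the thresholds (Benjamini-Hochberg adjusted p up to 0.05 and a 1.5-fold change) in edgeR, where 4.11% of the 730 entries tested were called higher. In 0 of the 4 were the groups free of overlap, against 2.47% of all entries. An unadjusted p under 0.05 was found for 2 arms, both of miR-212 and higher, beside 12.1% of all entries in that direction. DESeq2 called these 2 arms, beside 6.71% of all entries called higher.

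rno-miR-212-3p averaged 0.224 ± 0.0908 CPM in old CR (SD, n = 6), beside the young AL mean given above, and 4 of 6 old CR libraries exceeded the whole young AL group. edgeR gave a log2 fold change of 1.47 with an SE of 0.459 and an adjusted p of 0.0645, and the approximate 95% interval was 0.57 to 2.37. The adjusted p was 0.0367 from DESeq2 and 0.0257 in an edgeR fit over all 3 groups. Without young AL replicate 5, the young library with the most counts of this arm, edgeR gave 1.89 and an adjusted p of 0.0269. Without young AL replicates 1 and 2, both low, edgeR gave 1.20 and an adjusted p of 0.224.

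rno-miR-212-5p averaged 0.452 ± 0.201 CPM in old CR, and edgeR gave a log2 fold change of 1.19 over young AL with an SE of 0.413 and an adjusted p of 0.0952. For rno-miR-132-5p edgeR gave 0.64 with an SE of 0.342 and an adjusted p of 0.261, and for rno-miR-132-3p 0.44 with an SE of 0.247 and an adjusted p of 0.285. The interval of the difference was -0.03 to 1.31 for rno-miR-132-5p and -0.04 to 0.92 for rno-miR-132-3p. Both intervals include no difference as well as a 1.5-fold rise.

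The comparison of old CR with old AL asks what CR changes at 28 months. It shares the old AL libraries with the contrast that picked the cluster. edgeR called 0 of the 4 arms, where 0.272% of 736 entries were called higher. For 0 of the 4 was the unadjusted p under 0.05, beside 12.0% of all entries in either direction, and DESeq2 called 0 of the 4, beside 2.58% of all entries. With 4 members a count of 0 lies near these shares. Groups without overlap were found for 0 of the 4, against 0.408% of all entries in the higher direction.

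In this comparison edgeR gave rno-miR-212-3p a log2 fold change of -0.46 with an SE of 0.327 and an adjusted p of 0.595, and 3 of 6 old CR libraries were lower than the whole old AL group. Its interval, -1.10 to 0.18, includes no difference as well as a 1.5-fold fall. For rno-miR-132-5p edgeR gave 0.70 with an SE of 0.343 and an adjusted p of 0.414, and 0.33 with library totals in place of TMM. Its approximate interval, 0.03 to 1.37, does not include no difference, though the unadjusted p from edgeR was 0.0646. With 1 library left out the log2 fold change was 0.52 (without old CR replicate 17) to 0.90 (without old AL replicate 7).

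For rno-miR-132-3p edgeR gave 0.18 with an SE of 0.300 and an adjusted p of 0.895, which with 1 library left out became 0.0080 (without old CR replicate 17) to 0.45 (without old AL replicate 7). It was 0.07 without old AL replicate 9, 0.11 without old AL replicate 12 and 0.29 without old CR replicate 13. Scaling by library totals in place of TMM turned its sign, with -0.21. The means of rno-miR-212-5p were nearly the same in both old groups, 0.452 ± 0.201 CPM with CR and 0.448 ± 0.127 CPM without, and the interval of their log2 difference of 0.01 was -0.62 to 0.63. The 3 comparisons share their groups in pairs, so the values of an arm are not independent of each other.

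**Figure D2:**
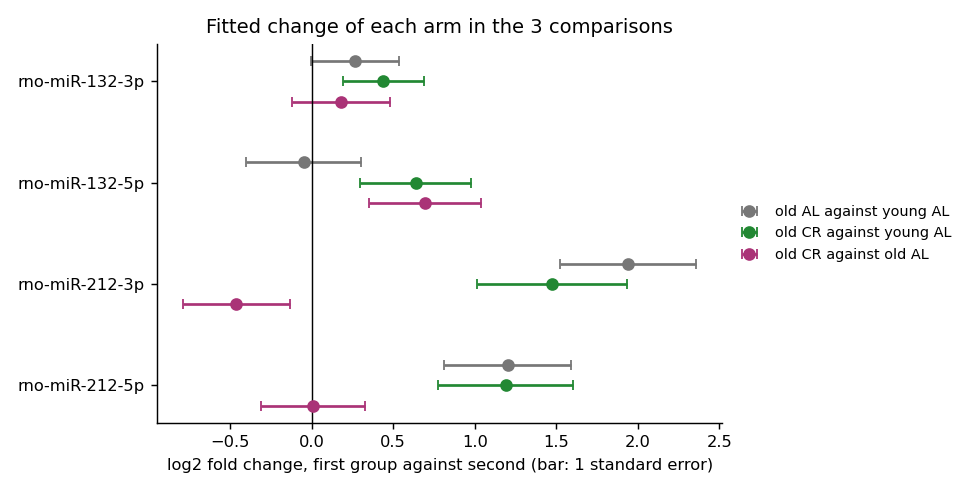
Log2 fold change of each arm in the 3 comparisons, from edgeR, with bars of 1 standard error and a line at no change. The miR-212 arms lie at 1.19 to 1.94 against young AL in both old groups, and the old CR against old AL values of all 4 arms lie between -0.46 and 0.70.

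Ratios of counts within a library do not depend on the scaling between libraries, and were used to set the arms against each other. The log2 ratio of rno-miR-212-3p to rno-miR-132-3p, the members of the seed family, was -4.69 to -3.65 among young AL libraries (mean -4.27 ± 0.434, SD, n = 6). It was -3.02 to -2.10 among old AL (mean -2.50 ± 0.390) and -3.78 to -2.46 among old CR libraries (mean -3.20 ± 0.501). All 6 old AL libraries and 5 of 6 old CR libraries exceeded the young AL range. As a share of the counts of both 3p arms, rno-miR-212-3p made up 3.03 to 7.14% in the young rats, 10.7 to 18.6% in old AL and 6.45 to 15.1% in old CR.

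Old CR exceeded young AL in this ratio by 1.07 on the log2 scale (SE 0.271, two-sided exact permutation p = 0.00433, adjusted p = 0.0260 over 6 tests of ratios). The smallest p this design allows is 0.00216. With 1 library left out the difference stayed between 0.92 and 1.20 and the unadjusted exact permutation p between 0.00433 and 0.00866. The adjusted exact permutation p rose to 0.0519 without any 1 of 10 libraries, all but young AL replicate 5 and old CR replicate 16. With 1 library left out there are fewer arrangements and the smallest possible p is higher, so this rise is in part set by the design. In young AL the ratio rests on 2 to 12 counts of rno-miR-212-3p per library. These counts were part of the contrast that picked the cluster, so this result too is only in part independent.

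Between old CR and old AL the ratio of the 3p arms differed by -0.70 (SE 0.259, exact permutation p = 0.0281, adjusted p = 0.0844), with 4 of 6 old CR libraries below the old AL range, and this did not pass the adjustment. The old AL counts of rno-miR-212-3p were part of the contrast that picked the cluster. A choice made for high old AL counts can by itself leave another group lower, so this p is not independent of the choice. The difference of old AL from young AL, 1.77 (SE 0.238), is a description, since it holds the contrast that picked the cluster.

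The balance of the arms of miR-132, as the log2 ratio of 3p to 5p, was 0.65 ± 0.484 in the young rats, 0.91 ± 0.321 in old AL and 0.39 ± 0.450 in old CR (SD, n = 6 each). Old CR was 0.52 lower than old AL on this scale (difference -0.52, SE 0.225, exact permutation p = 0.0476, adjusted p = 0.0952), with 4 of 6 libraries below the old AL range. Against young AL the difference was -0.26 (exact permutation p = 0.346, adjusted p = 0.416), and from -0.41 (without young AL replicate 4) to -0.11 (without young AL replicate 1) with 1 library left out. For miR-212 the log2 ratio was -1.22 ± 0.780 in the young rats, -0.52 ± 0.655 in old AL and -0.98 ± 0.374 in old CR. Neither difference of old CR passed, with 0.24 against young AL (exact permutation p = 0.589, adjusted p = 0.589) and -0.46 against old AL (exact permutation p = 0.154, adjusted p = 0.231). The latter was -0.22 without old AL replicate 8, and the former -0.05 without young AL replicate 2. Both differences of miR-212 hold counts of rno-miR-212-3p from the contrast that picked the cluster, so they are only in part independent.

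**Figure D3:**
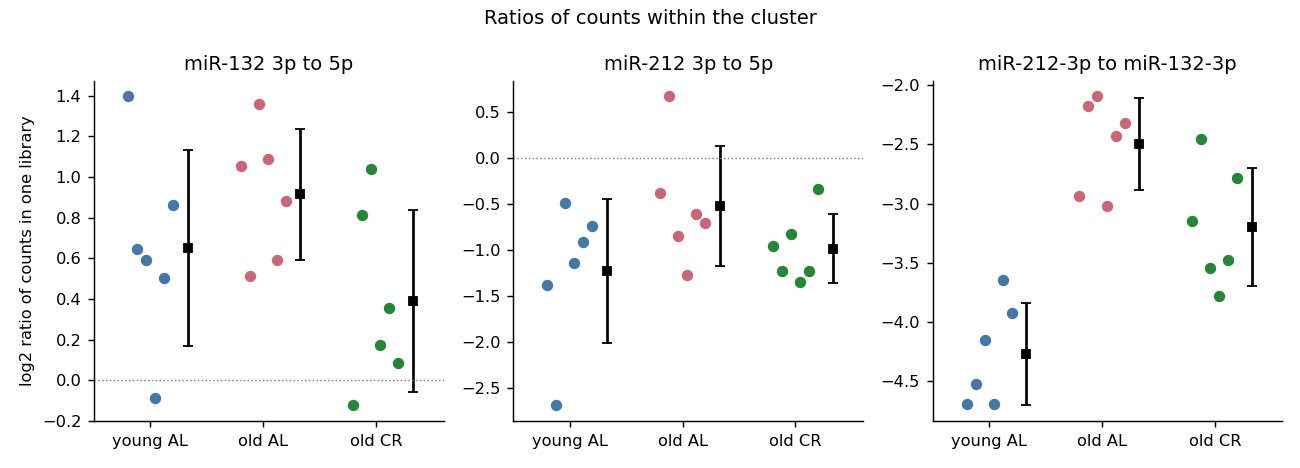
Log2 ratios of counts in each library, for the 3p to 5p arm of miR-132, the 3p to 5p arm of miR-212, and rno-miR-212-3p to rno-miR-132-3p, with the mean and SD of each group as a square with a bar. Dotted lines mark equal counts, and each panel has its own scale. In the right panel young AL lies at -4.69 to -3.65, old AL at -3.02 to -2.10 and old CR at -3.78 to -2.46, across both ranges.

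The summed level of the seed family overlapped between the groups. Both 3p arms together came to 1.20 to 2.33 CPM per young AL library (median 1.44), 1.37 to 4.02 CPM per old AL library (median 1.83) and 1.34 to 3.69 CPM per old CR library (median 2.18). rno-miR-132-3p made up the larger part of this sum in every library. The sum of all 4 arms was 1.84 to 4.18 CPM among the young, 2.27 to 6.33 CPM among the old AL and 2.92 to 7.05 CPM among the old CR libraries.

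Of the 6 pairs of arms, 2 varied together among rats of the same group. To take the group differences out, each arm's log2 CPM was set against its group mean and the pairs were correlated over the 18 libraries. rno-miR-132-3p and rno-miR-132-5p, cut from the same hairpin, had a Pearson r of 0.75 and a Spearman rho of 0.75 (permutation p = 7.8e-04 and 0.00166, adjusted p = 0.00309 and 0.00807 over 6 pairs). Without the 2 libraries farthest from the median of rno-miR-132-3p, r was 0.64. Within young AL, old AL and old CR, r was 0.71, 0.89 and 0.65.

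rno-miR-132-3p and rno-miR-212-3p, from different hairpins, reached an r of 0.69 and a rho of 0.72 (permutation p = 0.00103 and 0.00269, adjusted p = 0.00309 and 0.00807), 0.69 without the 2 farthest libraries, and 0.94, 0.73 and 0.61 within the groups. For rno-miR-212-3p and rno-miR-212-5p, r was 0.51 (permutation p = 0.0610, adjusted p = 0.0916) and rho 0.48 (permutation p = 0.0704, adjusted p = 0.106). The other 3 pairs had an r of 0.17 to 0.53, and none of their adjusted permutation p passed (0.0692 to 0.526). All arms of a library are divided by the same scaling factor, which by itself moves them together, and its part in these correlations was not tested.

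**Figure D4:**
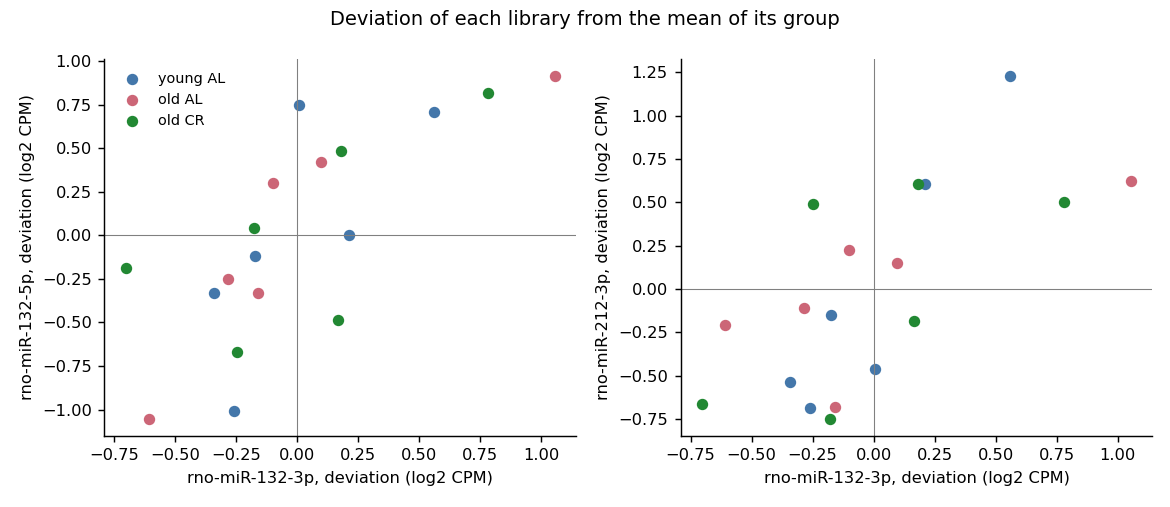
Deviation of each library from its group mean, in log2 CPM, for rno-miR-132-5p and rno-miR-212-3p against rno-miR-132-3p, with 1 point per library coloured by group. Both clouds rise to the right, with r of 0.75 and 0.69 over 18 libraries.

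Among 319 known miRNAs with a mean of at least 1 CPM, those whose log2 CPM over the 18 libraries was most like rno-miR-212-3p by Spearman rho were rno-miR-200c-3p (0.723), rno-miR-219b (0.688), rno-miR-219a-2-3p (0.682), rno-miR-124-3p (0.678) and rno-miR-183-5p (0.647). By background knowledge miR-200c is an epithelial miRNA, miR-124 a neuronal one and miR-219 one of nerve tissue and myelinating glia. Within the cluster the rho of rno-miR-212-3p was 0.730 with rno-miR-212-5p and 0.569 with rno-miR-132-3p. The level of rno-miR-124-3p was 0.531 ± 0.293 CPM in the young rats, 1.43 ± 0.706 CPM in old AL rats and 3.64 ± 3.25 CPM with CR (SD, n = 6 each). Unlike rno-miR-212-3p it thus had its highest mean in old CR, as did each of the others listed. The spread there was wide for rno-miR-200c-3p, at 9.94 ± 21.4 CPM.

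For rno-miR-132-3p the most alike were rno-miR-214-3p (rho 0.680), rno-miR-330-5p (0.641), rno-miR-3590-5p (0.608), rno-miR-130a-3p (0.608) and rno-miR-326-3p (0.593). The counts of rno-miR-3590-5p and rno-miR-130a-3p differed by at most 10% or 2 counts in all libraries, so they are 1 observation. No miRNA was in both lists of 5. These likenesses hold the group differences and the shared scaling, and are given without a test.

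Markers of the cell types in which the cluster is known were set beside these values. Of 23 tested entries of miRNAs abundant in nerve tissue, edgeR called 2 higher in old AL against young AL, rno-miR-129-1-3p and rno-miR-598-3p, which are named after their values were seen. At an unadjusted p under 0.05 there were 12 in that comparison, 10 of them higher, and DESeq2 called 4. For old CR over young AL 10 were called higher by edgeR, 10 by DESeq2, and 12 were higher at an unadjusted p under 0.05. The 10 of edgeR hold both rno-miR-129-1-3p and rno-miR-129-2-3p. These had the same means in old AL (0.264 CPM) and old CR (0.598 CPM), so they may not be separate observations. In young AL their means were 0.0485 and 0.0852 CPM. edgeR called 0 in old CR against old AL, where 11 were higher at an unadjusted p under 0.05 and DESeq2 called 3. Over all entries tested, in either direction, edgeR called 24 of 732, 68 of 730 and 2 of 736 in the 3 comparisons. An unadjusted p under 0.05 was found for 171, 186 and 88 of them, and DESeq2 called 84, 109 and 19. The lists below are to be read beside the same totals. The median log2 fold change of this list was 0.60, 1.14 and 1.0 in the 3 comparisons, beside 0.06, 0.08 and 0.01 over all entries tested. Its summed level was 606 to 1064 CPM per young AL library, 451 to 811 CPM per old AL library and 465 to 815 CPM per old CR library. Most of it was rno-miR-128-3p, with group means of 710, 486 and 520 CPM, and the next most abundant, rno-miR-218a-5p, averaged 26.7, 29.8 and 59.5 CPM. The part of nerve tissue in the levels of the cluster was not tested.

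Leukocyte miRNAs (8 entries of miR-142, miR-150, miR-155 and miR-223) summed to 126 to 172 CPM per young AL library, 111 to 611 CPM per old AL library and 115 to 240 CPM per old CR library. The 611 CPM belonged to old AL replicate 8, the library with more rno-miR-212-3p than rno-miR-212-5p, and the other old AL libraries reached at most 171 CPM. edgeR called 0 of the 8 in each comparison, 2 were higher in old AL against young AL at an unadjusted p under 0.05 and 0 in the other comparisons, and DESeq2 called 0. The most abundant, rno-miR-150-5p, averaged 129, 146 and 121 CPM in young AL, old AL and old CR, and rno-miR-142-5p 6.54, 31.9 and 13.2 CPM. The part of leukocytes in the levels of the cluster was not tested.

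The endothelial miR-126a entries summed to 4713 to 8048 CPM among young AL, 3818 to 7273 CPM among old AL and 3961 to 6808 CPM among old CR libraries. For these 2 entries, for smooth muscle (4 entries of miR-143 and miR-145) and for fibroblasts (3 tested), edgeR called 0 in each comparison, 0 had an unadjusted p under 0.05 and DESeq2 called 0. Of the red cell miRNAs miR-144 and miR-451 (4 entries, summed to 3.43 to 11.8 CPM) edgeR also called 0 in each comparison. In that list 1 was higher in old AL against young AL and 1 lower in old CR against old AL at an unadjusted p under 0.05, and DESeq2 called 1, higher in old AL against young AL.

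Other miRNAs with roles like those of the cluster were followed in 2 lists, neither of which holds a member. Of 23 tested entries of miRNAs known for a part in synaptic plasticity, with rno-miR-29a-3p and rno-miR-128-3p as the most abundant, edgeR called 0 in old AL against young AL, 5 higher in old CR against young AL and 0 in old CR against old AL. At an unadjusted p under 0.05 these comparisons held 7, 7 and 5 entries, beside 171 of 732, 186 of 730 and 88 of 736 over all entries. DESeq2 called 2, 6 and 2. The 5, named after their values were seen, were rno-miR-124-3p, rno-miR-124-5p, rno-miR-219a-2-3p, rno-miR-9a-3p and rno-miR-9a-5p, which are also in the list of nerve tissue miRNAs and so are no separate observation.

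Of 16 tested entries of miRNAs known from cardiac hypertrophy, with rno-miR-24-3p and rno-miR-21-5p as the most abundant, edgeR called 1 lower in old AL against young AL, rno-miR-24-1-5p, and 0 in the other comparisons. At an unadjusted p under 0.05 the 3 comparisons held 3, 0 and 2 entries, and DESeq2 called 1, 0 and 0. The median log2 fold changes of this list were -0.06, -0.20 and -0.02.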

How the data were processed

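Counts of 763 known miRNAs and 146 predicted candidates in 18 libraries, 1 per rat, were taken as deposited, as raw counts without normalization. The authors removed adapters (Cutadapt 1.2.1), poor-quality ends (Sickle) and short reads, and found miRNAs with miRDeep2. The submitters' processing notes also name Bowtie2 2.4.0 and Rnor_6.0. How multiply matching reads were handled, and which miRBase release served, is not given in the sources used here. Reads shared by near-identical miRNAs may therefore be split or repeated between entries. Each sample was matched to 1 column of counts. The column name of old CR replicate 14 carried an added ending and was matched without it.

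Groups were compared in pairs with the quasi-likelihood test of edgeR 4.0.16 (R 4.3.3, TMM factors, robust estimation) on entries with at least 10 counts over the libraries fitted. All p were two-sided with Benjamini-Hochberg adjustment over the entries tested, and an entry was called when its adjusted p was no higher than 0.05 and its change no smaller than 1.5-fold. This fit, rather than DESeq2 1.42.0, the tool of the study, was the main test, and DESeq2 was an alternative. The SE was obtained as the absolute log2 fold change over the root of the F statistic. Intervals were taken from it with the normal distribution, so they are approximate, narrower than the edgeR test implies, and can differ from its p. CPM were computed from the counts with TMM factors over all 18 libraries, and 0.5 counts were added on log2 scales and in ratios. Ratios were compared by the exact permutation test over 924 arrangements (scipy 1.17.1), and correlations by 100000 permutations within groups. The edgeR fit was tested on simulated data, and the other steps were not.

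Library totals of 34940346 to 83110905 counts leave the miR-212 arms at few counts per library. The exact Poisson intervals hold counting error alone, while the intervals of the log2 fold changes from edgeR also hold the spread between libraries. PCR copies were not marked by molecular identifiers. For every pair of replicates chi-square per degree of freedom was at least 982, so all libraries were treated as separate samples.

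The members, gene lists and tests were chosen with earlier results of these data known. Beside the members, the text names the 5 miRNAs most like each 3p arm and up to 2 of the most abundant entries of each list, and other names were added after their values were seen. Alternatives were other scaling factors, filters, fits, entries tested and libraries left out. RT-qPCR and cell culture data were not analysed here.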

Additional observations from a re-analysis of the deposited data

Results flagged for a closer look

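Of 21 sets of 6 values examined (each arm and each ratio in each group), 1 held a library far from the others, where chance alone marks about 1 in 20. The log2 CPM of rno-miR-212-5p in old AL replicate 8 was -2.16 (0.216 CPM, 18 counts), the lowest of its group. Its gap to the nearest library was 0.715 of the range of the group, above the limit of 0.625 for 6 samples. The exact 95% Poisson interval of 18 counts is 10.7 to 28.4. This library also had the highest summed level of leukocyte miRNAs of the 18 libraries, 611 CPM, and the part of that in the value was not tested.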

How the results depend on the processing

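The number of entries called in old AL against young AL (24 from edgeR with TMM) was 0 with library totals, 84 from DESeq2, 37 with filterByExpr, 53 with known miRNAs only and 9 to 20 with 1 library left out. In old CR against young AL (68) it was 109 from DESeq2 and 45 to 67 with 1 library left out, the 45 without old CR replicate 18. Higher and lower calls there were 30 and 38 with TMM and 16 and 31 with library totals. In old CR against old AL (2) it was 0 with upper-quartile factors, library totals, no robust estimation or known miRNAs only, 19 from DESeq2 and 0 to 3 with 1 library left out. Library totals moved the median log2 fold change of all entries to 0.23, -0.05 and -0.27 in the 3 comparisons. The causes were not tested.

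For old CR against young AL, rno-miR-212-3p passed the thresholds with DESeq2 (log2 fold change 1.49), with 1 fit over the 3 groups (1.48), with known miRNAs only (1.45) and without young AL replicate 5 (1.89). It was 1.33 to 1.89 with 1 library left out, with an adjusted p from edgeR of 0.0269 to 0.134, and was not tested under filterByExpr. rno-miR-212-5p passed with DESeq2 (1.18) and with 1 fit over the 3 groups (1.20). For old CR against old AL, rno-miR-132-3p turned to -0.21 with library totals, and rno-miR-212-5p, at 0.01, turned to -0.16 with upper-quartile factors, -0.26 with library totals and -0.0091 with filterByExpr, and ranged from -0.17 to 0.12 with 1 library left out. The difference of old CR from young AL in the log2 ratio of miR-212 3p to 5p ranged from -0.05 (without young AL replicate 2) to 0.39, and that of rno-miR-212-3p to rno-miR-132-3p from 0.92 to 1.20, with an adjusted exact permutation p of 0.0260 to 0.0519.

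Among the untested old AL against young AL values, rno-miR-132-3p was -0.01 to 0.41 and rno-miR-132-5p -0.26 to 0.13 with 1 library left out. The other tested values of the 4 arms and the ratios kept their direction and their side of the threshold under the alternatives run. No paired analysis was possible because each library came from a different rat and no rat belonged to more than 1 group. In young AL the depth left 4 of 6 libraries with at most 3 counts of rno-miR-212-3p, so its fold changes against young AL rest on few reads.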
